A study of Mus musculus with 20 samples.

Results

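Of 39 genes of the axonal cytoskeleton listed by name, 38 had a usable measurement in the neocortex of 20 male mice, out of 13351 genes tested on the arrays. The list holds neurofilament subunits, tubulins, microtubule-associated proteins, stathmins, doublecortins and collapsin response mediators, growth cone proteins, axonal motors, ankyrins, a spectrin and plus-end protein, and the neuronal proteins Thy1 and Uchl1. Members were found through the array annotation, with older names matched by gene identifier, so that Spnb2 appears as Sptbn1. All 38 passed the filter on dim probe sets, which was set on the mean over all mice, and 1 probe set, the brightest, stood for each gene. The α-tubulin gene Tuba1b lay only on a probe set shared with other genes and has no value here.

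Singly housed B6C3F1 mice, F1 animals from a B6 and C3H cross, were used. There were 4 groups of 5 mice, each mouse with its own array. The mixture group was 30 months old and had received 500 mg/kg α-tocopherol with 500 mg/kg γ-tocopherol from 15 months of age. The α-tocopherol group was also 30 months old and had received 1000 mg/kg α-tocopherol from 15 months. The control diet was fed to old control mice, 30 months old, and to young control mice, 5 months old. Both tocopherols are forms of vitamin E, and γ-tocopherol has a methyl group fewer on its ring than α-tocopherol. The comparisons ask how the cortical transcriptome changes with age, and how it differs with each vitamin E diet started in middle age.

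Axons are held open by neurofilaments, which set axon calibre in large projection neurons, and by parallel microtubules built from α- and β-tubulin dimers. Microtubule-associated proteins stabilise these tracks, stathmins bind free dimers and favour disassembly, and kinesins and dynein carry cargo along them in opposite directions. Under the membrane a lattice of spectrin is anchored by ankyrins, and ankyrin-G organises the axon initial segment where action potentials start. Doublecortins, collapsin response mediators and growth cone proteins are best known from growing axons.

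With age, 13 of the 38 genes rose and 2 fell, and the 4 neurofilament genes were not among them. A gene is said to rise or fall where limma's Benjamini-Hochberg adjusted p over all genes tested was under 0.05. Of all genes tested 12.4% rose and 10.4% fell in old against young control mice. The median log2 difference was 0.13 over the 38 genes and -0.02 over all genes. With the mixture, 11 fell and 0 rose against old control, where 3.16% of all genes fell and 1.36% rose. The medians were -0.16 over the 38 genes and 0.00 over all genes. With α-tocopherol alone 0 of the 38 and 0.0% of all genes were called.

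Bright genes as a whole moved in these directions, and the axonal genes are bright. Of the 38, 27 were in the brightest 10% of the genes tested, those with a mean signal of at least 6006. The other 1309 genes of that 10% had a median log2 difference of 0.12 in old against young control mice, with 34.0% higher and 4.43% lower. Against old control they had a median of -0.13 with the mixture, with 21.0% lower and 0.229% higher. After quantile normalization, which gives every array the same distribution of signals, these medians were 0.00 and -0.01. The 98th percentile of signal was 10474 to 11036 in mixture mice, 11076 to 12119 in α-tocopherol mice, 11297 to 12037 in old control mice and 10636 to 11121 in young control mice. Old control mice did not overlap with mixture or young control mice on this measure (exact permutation test, adjusted p = 0.019 over 12 tests for each, the smallest raw p possible being 0.00794). Nor did mixture mice overlap with α-tocopherol mice on it (adjusted p = 0.019). The median signal averaged 291.6 in old control and 320.7 in young control mice, again without overlap (adjusted p = 0.019). The β-actin 3′ to 5′ signal ratio, a measure of RNA integrity and cDNA length, averaged 1.43 ± 0.14 in mixture, 1.67 ± 0.39 in α-tocopherol, 2.04 ± 0.34 in old control and 1.52 ± 0.14 in young control mice (SD, n = 5 each). It differed between old and young control mice (exact permutation test, adjusted p = 0.0476) and between mixture and old control mice (adjusted p = 0.019). Mixture mice, at 1.22 to 1.6, did not overlap with old control mice, at 1.73 to 2.52. The part of signal distribution and RNA integrity in the differences below was not tested, so the counts of each group of axonal genes are given also after quantile normalization and with the β-actin ratio added to the model, and those of the other gene lists after quantile normalization.

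After quantile normalization 5 of the 38 genes rose with age and 4 fell, where 21.1% of all genes were called in either direction, and the median was 0.00. The share of higher among the calls was 86.7% as deposited, beside 54.5% among the calls of all genes, and 55.6% after quantile normalization. Cyclic loess normalization gave 7 higher and 3 lower, a share of 70.0%, against 12.2% and 8.96% of all genes. Setting the array medians equal gave 21 higher and 1 lower, a share of 95.5%, against 23.3% and 3.23%, but moved the median of all genes to 0.11, beside 0.27 for the 38 genes. By the brightest probe set of each, Tubb3, Tuba4a, Map1b, Clasp2 and Ank3 rose and Dpysl3 fell under all 4 scalings. With the β-actin ratio added as a covariate 5 rose and 0 fell, against 4.75% and 3.92% of all genes, and these 5 were Tuba4a, Map1b, Kif5c, Clasp2 and Ank3. With the mixture only Clasp2, by its brightest probe set, fell under all 4 scalings. It was the sole call after quantile and cyclic loess normalization, where 0.382% and 0.389% of all genes fell and 0.225% and 0.292% rose. With the array medians set equal 13 fell and 0 rose, against 4.82% and 0.247% of all genes. With the β-actin covariate 0 of the 38 and 0.0% of all genes were called between mixture and old control mice. The ratio did not overlap between these groups, so that fit cannot tell the diet from the ratio.

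**Figure D1:**
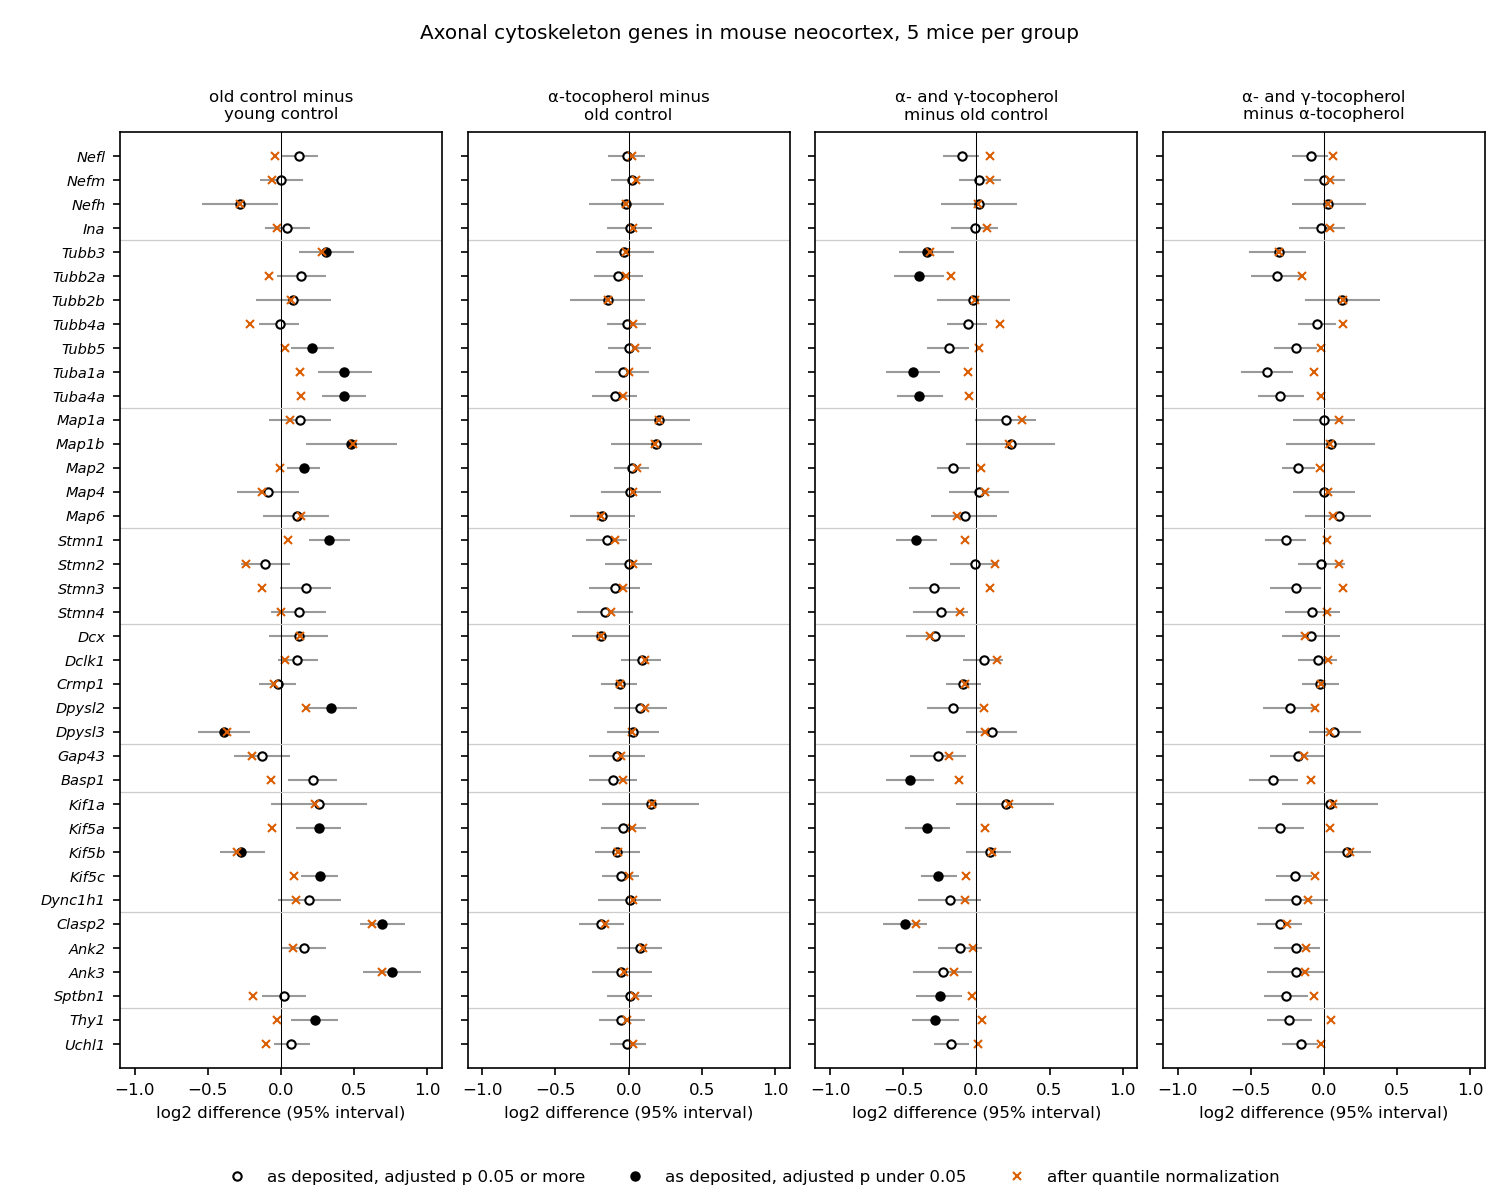
Log2 difference (x axis) of each of the 38 axonal cytoskeleton genes (rows, in groups by role) in 4 comparisons of 5 mice per group. Circles with 95% intervals are signals as deposited, filled where the limma adjusted p was under 0.05, and crosses are values after quantile normalization. In the first panel 13 filled circles lie right of 0 and 2 left of it, in the third panel 11 lie left of it, and the panels of α-tocopherol against old control and of the mixture against α-tocopherol hold no filled circle.

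By the brightest probe set of each, the 4 neurofilament genes were not called in any comparison as deposited. With age and with the mixture they were also not called after quantile normalization or with the β-actin covariate. Nefl, the light chain on which the filament is assembled, had signals of 16685, 15671, 16864, 14467 and 14567 in mixture mice and 16741, 16003, 17896, 16345 and 16289 in α-tocopherol mice. Its signals were 15066, 16575, 17665, 16869.9 and 17952 in old control mice and 15239, 16095, 15241, 14277 and 16297 in young control mice. The 4 groups overlapped, and the log2 difference with age was 0.12 with a 95% interval of 0.00 to 0.25. Another Nefl probe set had 14024, 13979, 14550, 15582 and 16018 in old control mice. It had 13588, 13011, 12805, 12208 and 13618 in young control mice, without overlap, and its test is given below. Nefm, the medium chain, averaged 7431 ± 323 in old control and 7444 ± 865 in young control mice (SD, n = 5 each), and its interval ran from -0.14 to 0.15. Ina, α-internexin, a further subunit in central neurons, averaged 9312 ± 698 in old control and 9031 ± 658 in young control mice.

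Nefh, the heavy chain whose long phosphorylated tail projects from the filament, was the neurofilament gene with the largest difference with age. Its signals in old control mice were 3466, 2849, 1918, 3151 and 2265, against 3164, 3267, 3028, 3097 and 3711 in young control mice. Old control mice 3 and 5 were lowest, and mice 1 and 4 lay within the young range. The log2 difference was -0.28 ± 0.12 SE (adjusted p = 0.104) and had the same value after quantile normalization (adjusted p = 0.107). In mixture mice Nefh averaged 2707 ± 213 and in α-tocopherol mice 2661 ± 375, against 2729.7 ± 634.3 in old control mice. With the array medians set equal Nefl was called higher with age (log2 difference 0.26, adjusted p = 0.0142).

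Among 7 measured tubulins 4 rose with age, where 12.4% of all genes and 34.0% of the other genes in the brightest 10% rose. With the mixture 4 fell, where 3.16% and 21.0% fell. After quantile normalization Tubb3 and Tuba4a rose and Tubb4a fell with age, and none was called with the mixture. With the β-actin covariate Tuba4a alone rose with age and none was called with the mixture. Tuba4a, an α-tubulin of the adult brain, had signals of 25275, 26366, 24673, 21553 and 23376 in mixture mice. They were 32839.8, 28874, 33255, 29190.4 and 25053 in α-tocopherol mice, 28556, 30546, 34781, 30222 and 34615 in old control mice and 24538, 23367, 23543, 23119 and 22896 in young control mice. Every old control mouse was above every mixture and every young control mouse. Tuba4a was 1.35-fold higher with age (log2 difference 0.43 ± 0.07 SE, adjusted p = 0.000443), and 0.14 after quantile normalization (adjusted p = 0.0202). With the mixture it was 1.31-fold lower (log2 difference -0.39 ± 0.07 SE, adjusted p = 0.00917), and the difference was -0.05 and not called after quantile normalization.

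Tubb3, the neuronal β-tubulin used as a marker of neurons, had signals of 4943, 4361, 4895, 4203 and 3301 in mixture mice and 6199, 5351, 5089, 5409 and 4782 in α-tocopherol mice. Its signals were 5111, 5900.1, 4875, 5358 and 6069 in old control mice and 4780.3, 4217, 4214, 4433 and 4340.3 in young control mice. Old and young control mice did not overlap, and mixture mice 1 and 3 reached the lowest old control mouse. Tubb3 rose with age by a log2 difference of 0.31 ± 0.09 SE (adjusted p = 0.0198), and by 0.28 after quantile normalization (adjusted p = 0.0283). Without old control mouse 5 the difference was 0.27 (adjusted p = 0.0567). With the mixture it fell (log2 difference -0.34 ± 0.09 SE, adjusted p = 0.0394), with -0.32 after quantile normalization (adjusted p = 0.075). That call was lost without any 1 of old control mice 2, 4 and 5 or mixture mice 2, 4 and 5, the differences being -0.35 to -0.25.

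Tuba1a, the main α-tubulin of growing neurons, was measured by a probe set of the kind that may cross-hybridise, here with other α-tubulins. It had signals of 28874, 29716, 26986, 26919 and 25760.0 in mixture mice and 45874, 37347, 38160.4, 33808 and 28150.1 in α-tocopherol mice. Signals were 33522, 38537, 37933, 37406 and 39355 in old control mice and 29653, 27191, 27843, 28683 and 24888 in young control mice. Old control mice again lay above both other groups, and α-tocopherol mice spread over the whole range. The log2 difference was 0.43 ± 0.09 SE with age (adjusted p = 0.00156) and -0.43 ± 0.09 SE with the mixture (adjusted p = 0.00998). After quantile normalization it was 0.13 (adjusted p = 0.192) and -0.06 (adjusted p = 0.702).

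Tubb5, a β-tubulin of most cell types, rose with age (log2 difference 0.21 ± 0.07 SE, adjusted p = 0.0307). The call was lost without any 1 of young control mice 2, 3 and 5 or old control mice 2, 3 and 5, with differences of 0.17 to 0.21. Tubb2a, a major β-tubulin of neurons, averaged 15921 ± 1069 in mixture and 20908 ± 1359 in old control mice, with no overlap (log2 difference -0.39 ± 0.08 SE, adjusted p = 0.0115). Its log2 difference with age was 0.14 ± 0.08 SE (adjusted p = 0.236). Its probe set may also cross-hybridise, by its name. Tubb4a, a β-tubulin rich in myelinating glia and neurons, averaged 17882 ± 1407 in old control and 18025 ± 751 in young control mice. It was called lower with age only after quantile normalization (log2 difference -0.21, adjusted p = 0.025). Tubb2b, a β-tubulin of developing cortex, averaged 4534 ± 905 in old control and 4222 ± 438 in young control mice.

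Of 5 microtubule-associated proteins 2 rose with age, where 12.4% of all genes rose. None was called with the mixture, where 3.16% of all genes fell and 1.36% rose. With age Map1b alone rose after quantile normalization and with the β-actin covariate. Map1b, which is best known from growing axons, had signals of 2533, 2358, 2649, 2151 and 2831 in mixture mice and 1910.2, 2621, 2682, 2615 and 2335 in α-tocopherol mice. Signals were 1451, 2319, 1993, 2034 and 3081 in old control mice and 1586, 1708, 1794, 1136 and 1427 in young control mice. Old control mouse 1 lay within the young range and mouse 5 far above the others. The log2 difference with age was 0.48 ± 0.15 SE (adjusted p = 0.0233), and 0.49 after quantile normalization (adjusted p = 0.0235). Without young control mouse 4 or 5, or old control mouse 2 or 5, it was 0.34 to 0.46 and not called (adjusted p = 0.0502 to 0.0788).

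Map2, which marks dendrites and cell bodies, rose with age as deposited (log2 difference 0.16 ± 0.06 SE, adjusted p = 0.0458), but had -0.01 after quantile normalization (adjusted p = 0.926). Without any 1 of 8 of the 10 mice, all but young control mouse 1 and old control mouse 4, the call was lost, the difference over all mice left out in turn being 0.13 to 0.18. Map1a, the adult counterpart of Map1b, averaged 11237 ± 980 in mixture, 11391 ± 2295 in α-tocopherol, 9765 ± 1010 in old control and 8907 ± 637 in young control mice, and was not called in any comparison as deposited. Map6, which makes microtubules cold-stable, and Map4, common to many cell types, averaged 1105 ± 87 and 5791 ± 679 in old control mice. In young control mice they averaged 1033 ± 156 and 6127 ± 329, and neither was called.

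Of 4 stathmins Stmn1 alone was called as deposited, higher with age and lower with the mixture, where 12.4% of all genes rose and 3.16% fell. None was called after quantile normalization or with the β-actin covariate, with age or with the mixture. With that covariate 0.0% of all genes were called with the mixture. Stmn1, which binds free tubulin dimers, had signals of 26825, 26870.3, 23186, 23299 and 25257 in mixture mice and 34051, 27676, 30460.2, 30939 and 27397 in α-tocopherol mice. They were 29993, 31804, 36072, 33124 and 36160.2 in old control mice and 27334, 25389.6, 26121, 26165 and 27692 in young control mice. All old control mice lay above all mixture and all young control mice. The log2 difference was 0.33 ± 0.07 SE with age (adjusted p = 0.00164) and -0.41 ± 0.07 SE with the mixture (adjusted p = 0.00619). After quantile normalization the differences were 0.05 (adjusted p = 0.375) and -0.08 (adjusted p = 0.347). Its probe set may cross-hybridise, by its name, as may that of Stmn3, a stathmin of neurons, which had a difference of -0.29 ± 0.08 SE with the mixture (adjusted p = 0.0524). Stmn2, a stathmin of regrowing axons, averaged 12634 ± 990 in old control and 13573 ± 679 in young control mice, and Stmn4 averaged 12903 ± 885 in old control and 11857 ± 940.2 in young control mice.

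Of 5 doublecortins and collapsin response mediators Dpysl2 rose and Dpysl3 fell with age, where 12.4% of all genes rose and 10.4% fell. Dpysl3 alone was called after quantile normalization and neither with the β-actin covariate. None was called with the mixture under these 3 settings. Dpysl2, also known as Crmp2, binds tubulin dimers and promotes axon growth. It had signals of 15134, 15959.6, 19302, 17306 and 20765 in old control mice, against 15409, 13320.2, 13575, 15446 and 12035 in young control mice. Old control mouse 1 fell within the young range (log2 difference 0.34 ± 0.09 SE, adjusted p = 0.0087), and after quantile normalization the difference was 0.17 (adjusted p = 0.106). Dpysl3, a relative with high levels in developing brain, had signals of 1336, 1526, 1460.0, 1428 and 1216 in old control mice, against 1990.0, 1958, 1854, 1567 and 1804 in young control mice. The groups did not overlap. The log2 difference was -0.39 ± 0.09 SE (adjusted p = 0.00268), and -0.37 after quantile normalization (adjusted p = 0.00453). With the β-actin covariate it was -0.32 (adjusted p = 0.0616). The mean over all Dpysl3 probe sets did not keep this fall, as given below. In mixture mice Dpysl3 averaged 1502 ± 148 and in α-tocopherol mice 1423 ± 103, against 1393 ± 120.4 in old control mice.

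Dcx, the doublecortin of migrating young neurons, averaged 1461 ± 125 in mixture mice, against 1789 ± 247 in old control mice (log2 difference -0.28 ± 0.10 SE, adjusted p = 0.0966). Dclk1, a doublecortin-like kinase, and Crmp1 were not called in any comparison as deposited. Neither of the 2 growth cone proteins was called with age under the same settings. With the mixture Basp1 was called lower, as deposited only, where 3.16% of all genes fell. Gap43 averaged 6778 ± 943 in mixture, 8096 ± 834 in old control and 8819.6 ± 576.0 in young control mice, and was not called. Basp1, another membrane-bound protein of growing axon tips, had signals of 25314, 22745, 24652, 23179 and 22749 in mixture mice, against 28209.6, 32302, 31696, 30897 and 40450.5 in old control mice. Every mixture mouse was lower, and Basp1 fell 1.37-fold (log2 difference -0.45 ± 0.08 SE, adjusted p = 0.00768), with -0.12 after quantile normalization (adjusted p = 0.286). With age its difference was 0.22 ± 0.08 SE (adjusted p = 0.0566).

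Of 5 motor genes Kif5a and Kif5c rose and Kif5b fell with age as deposited, where 12.4% of all genes rose and 10.4% fell. These are the 3 conventional kinesin heavy chains, each measured here by its brightest probe set. Kif5b alone was called after quantile normalization, and Kif5c alone, higher, with the β-actin covariate. With the mixture Kif5a and Kif5c fell as deposited, where 3.16% of all genes fell, and none of the 5 was called in those other fits. Kif5b, the widely expressed one, had signals of 5591, 5263, 4939.5, 4634 and 5052 in mixture mice and 4123, 4544, 5586, 4133 and 4480.3 in α-tocopherol mice. They were 4565, 4839.6, 5015, 5051 and 4505 in old control mice and 5311, 6027, 5694, 5948 and 5875 in young control mice. All old control mice were lower than all young control mice (log2 difference -0.27 ± 0.07 SE, adjusted p = 0.013), with -0.30 after quantile normalization (adjusted p = 0.00619) and -0.13, not called, with the array medians set equal. Kif5a, a neuronal kinesin mutated in human spastic paraplegia, rose with age as deposited (log2 difference 0.26 ± 0.08 SE, adjusted p = 0.0174) but had -0.06 after quantile normalization (adjusted p = 0.299). With the mixture it fell as deposited (log2 difference -0.34 ± 0.08 SE, adjusted p = 0.0167) and had 0.06 after quantile normalization (adjusted p = 0.495). Without old control mouse 5 the difference with age was 0.22 (adjusted p = 0.0512), and without mixture mouse 5 that with the mixture was -0.30 (adjusted p = 0.0534).

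Kif5c, the other neuronal kinesin, averaged 14544 ± 1324 in mixture, 16710.4 ± 726.8 in α-tocopherol, 17323 ± 632 in old control and 14414 ± 690 in young control mice (SD, n = 5 each). Old control mice did not overlap with mixture or young control mice. The log2 difference was 0.27 ± 0.06 SE with age (adjusted p = 0.00326) and -0.26 ± 0.06 SE with the mixture (adjusted p = 0.0196), but 0.09 and -0.07 after quantile normalization. Without mixture mouse 5 the second was -0.21 (adjusted p = 0.061). A dimmer probe set of Kif5c was called lower with age, as given below. Kif1a, which carries synaptic vesicle precursors, averaged 4613 ± 467 in old control and 3929.9 ± 964 in young control mice (adjusted p = 0.245). Dync1h1, the heavy chain of the dynein that moves cargo toward the cell body, averaged 11056 ± 1378 in old control and 9662 ± 1021 in young control mice (adjusted p = 0.185).

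By the brightest probe set, Clasp2 and Ank3 had the largest differences with age of the 38 genes, as deposited and after quantile normalization. Both also rose with the β-actin covariate. Clasp2, which binds the growing plus ends of microtubules and stabilises them, had signals of 7146, 6967.5, 7264, 7376 and 6518 in mixture mice and 9253, 8833, 8793, 9545 and 7224 in α-tocopherol mice. They were 9515, 9578, 9647, 11058 and 9799 in old control mice and 6436, 6029, 6057, 6852 and 5348 in young control mice. The old control mice stood above all mixture and young control mice, and α-tocopherol mouse 5 was at the level of the mixture mice. The gene was 1.62-fold higher with age (log2 difference 0.69 ± 0.07 SE, adjusted p = 5.24e-06) and 1.40-fold lower with the mixture (log2 difference -0.49 ± 0.07 SE, adjusted p = 0.00611). After quantile normalization the log2 differences were 0.62 (adjusted p = 8.06e-06) and -0.41 (adjusted p = 0.0135). With the β-actin covariate they were 0.62 (adjusted p = 0.000553) and -0.40 (adjusted p = 0.267). Without old control mice 3 and 5 the difference with the mixture was -0.51 (adjusted p = 0.0653). The other tested probe sets of Clasp2 were not lower with the mixture, as given below.

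Ank3, ankyrin-G of the initial segment and nodes of Ranvier, had signals of 8327, 8961, 10115, 7857 and 6593 in mixture mice and 9445, 8767, 11667, 9539.5 and 8115 in α-tocopherol mice. They were 9653, 9107, 10049, 9785 and 10124 in old control mice and 5101, 5732, 5594, 5787 and 6603 in young control mice. Every old control mouse was above every young control mouse (1.69-fold, log2 difference 0.76 ± 0.10 SE, adjusted p = 3.52e-05), with 0.69 after quantile normalization (adjusted p = 7.74e-05). A dimmer Ank3 probe set was called lower with age, and the mean over all Ank3 probe sets did not keep the rise, as given below. The mixture mice overlapped with old control mice on the brightest probe set (log2 difference -0.23 ± 0.10 SE, adjusted p = 0.183). Ank2, ankyrin-B of the axon shaft, averaged 9797 ± 611 in old control and 8768 ± 717 in young control mice (adjusted p = 0.114).

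Sptbn1, the main β-spectrin of neurons, averaged 16807 ± 1617 in mixture mice, against 20000.2 ± 1254.9 in old control mice (log2 difference -0.25 ± 0.07 SE, adjusted p = 0.0494). The call was lost without any 1 of old control mice 1, 3, 4 and 5 or mixture mice 2, 4 and 5, the difference over all mice left out in turn being -0.29 to -0.20. After quantile normalization it was -0.03. With age Sptbn1 had a difference of 0.02 as deposited and was called lower, by -0.19, after quantile normalization (adjusted p = 0.0488). Thy1, a surface glycoprotein of projection neurons, averaged 24747 ± 2161 in mixture, 29127 ± 2472 in α-tocopherol, 30017 ± 1936 in old control and 25678 ± 2521 in young control mice. As deposited it rose with age (log2 difference 0.23 ± 0.08 SE, adjusted p = 0.0326) and fell with the mixture (-0.28 ± 0.08 SE, adjusted p = 0.0371). After quantile normalization both signs turned, to -0.03 and 0.04, and with the β-actin covariate Thy1 was called in neither comparison. The age call was lost without young control mouse 2, 3 or 5 or old control mouse 2, and the mixture call without any 1 mouse except mixture mice 1 and 2. Over all mice left out in turn the differences were 0.19 to 0.26 with age and -0.31 to -0.22 with the mixture. Uchl1, an abundant neuronal ubiquitin hydrolase, averaged 14762 ± 543 in mixture, 16664 ± 1496 in old control and 15799 ± 737 in young control mice and was not called.

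**Figure D2:**
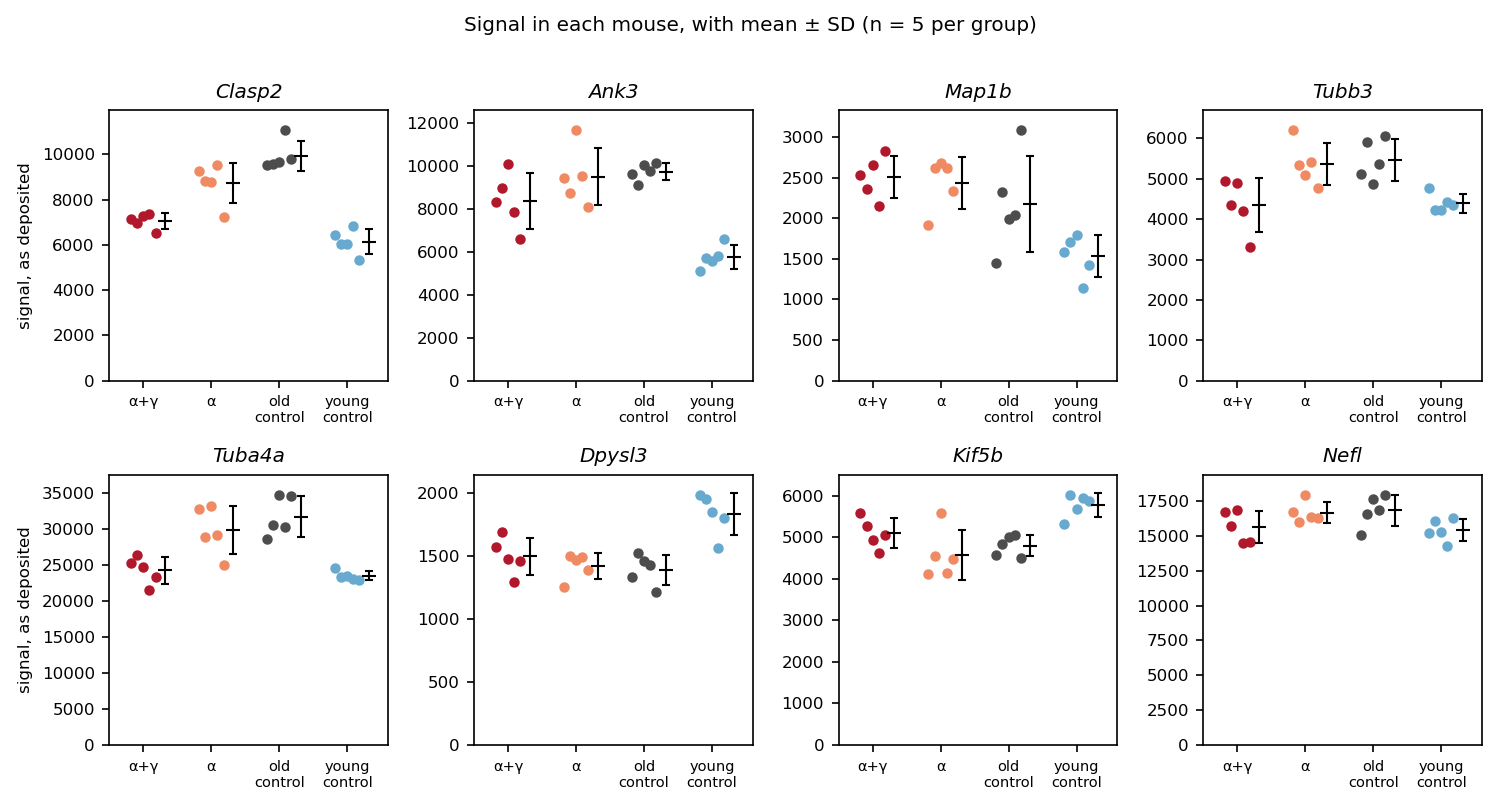
Signal as deposited (y axis, from 0) of 8 axonal genes in each mouse, with the mean ± SD of 5 mice beside the points, for the mixture (α+γ), α-tocopherol (α), old control and young control groups. For Clasp2 the old control points, 9515 to 11058, stand above all mixture and young control points, while for Nefl the 4 groups overlap.

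Promoter windows of RefSeq (GRCm38.p6), 250 bases before to 50 after a transcript start, were matched for 24 of the 39 genes. They are shown for 4 of the 5 genes that rose with age under all 4 scalings, to set genes with that call beside each other. Tubb3 lies at chr8:123411303-123411602 on the plus strand, and Tuba4a at chr1:75219245-75219544 on the minus strand. Map1b lies at chr13:99516553-99516852 on the minus strand, and Clasp2 at chr9:113741223-113741522 on the plus strand, the most upstream of its 3 windows. Capitals mark matches, on either strand, to motif cores that do not overlap each other here. The TATA box was searched as TATAAA and the CCAAT box as the letters in its name. The GC box was searched as GGGCGG and the E-box as CACGTG. The cAMP response element was searched as TGACGTCA and was added after the windows had been read.
Tubb3: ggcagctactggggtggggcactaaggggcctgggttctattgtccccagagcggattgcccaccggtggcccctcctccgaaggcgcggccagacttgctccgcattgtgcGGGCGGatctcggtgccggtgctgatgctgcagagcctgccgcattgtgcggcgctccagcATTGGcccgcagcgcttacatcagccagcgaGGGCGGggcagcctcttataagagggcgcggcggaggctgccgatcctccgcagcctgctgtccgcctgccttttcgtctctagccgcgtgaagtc
Tuba4a: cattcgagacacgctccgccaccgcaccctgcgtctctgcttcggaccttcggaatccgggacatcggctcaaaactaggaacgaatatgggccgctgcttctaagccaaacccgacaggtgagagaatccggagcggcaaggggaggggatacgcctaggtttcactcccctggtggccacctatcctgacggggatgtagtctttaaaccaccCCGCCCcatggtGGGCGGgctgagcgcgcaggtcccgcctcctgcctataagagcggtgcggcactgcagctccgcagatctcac
Map1b: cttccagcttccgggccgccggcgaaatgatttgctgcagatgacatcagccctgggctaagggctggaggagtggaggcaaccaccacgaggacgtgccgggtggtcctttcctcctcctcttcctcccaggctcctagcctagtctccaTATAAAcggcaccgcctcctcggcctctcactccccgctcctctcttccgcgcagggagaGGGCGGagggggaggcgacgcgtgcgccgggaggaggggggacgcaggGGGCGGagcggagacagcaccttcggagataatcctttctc
Clasp2: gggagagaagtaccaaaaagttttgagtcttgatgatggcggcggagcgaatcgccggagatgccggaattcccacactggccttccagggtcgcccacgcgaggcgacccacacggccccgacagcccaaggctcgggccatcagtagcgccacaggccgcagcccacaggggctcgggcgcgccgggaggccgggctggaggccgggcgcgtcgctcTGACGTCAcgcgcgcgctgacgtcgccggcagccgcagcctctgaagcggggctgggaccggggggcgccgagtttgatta

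The windows of Tubb3, Tuba4a and Map1b each held 2 GC boxes. At least 1 is held by 35.7% of the 32851 windows given and 2 or more by 19.5%. Tubb3 had 1 CCAAT box (37.4% of windows) and Map1b 1 TATA box (13.6%). Clasp2 had 1 cAMP response element core, held by 1.79% of windows. That motif was chosen after the windows had been read, so this share does not measure how unusual the match is. No window of the 4 held the E-box (7.15%). Their GC content was 67.3% for Tubb3, 62.0% for Tuba4a, 65.7% for Map1b and 70.0% for Clasp2, beside a median of 52.7% over all windows. The matches describe letters in these windows and no binding was measured.

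The dependence on signal level can be seen by setting each difference against the mean signal. In old against young control mice the deposited differences drifted upward with signal, and those of the mixture against old control drifted downward. The 7 axonal genes with the highest signals were Kif5a, Tuba1a, Stmn3, Stmn1, Basp1, Thy1 and Tuba4a. As deposited they had log2 differences of 0.17 to 0.43 with age and of -0.45 to -0.28 with the mixture, and after quantile normalization of -0.13 to 0.14 and of -0.12 to 0.09. Averaged over the 38 genes, the mean log2 signal was 13.08 to 13.22 in mixture, 13.17 to 13.36 in α-tocopherol, 13.27 to 13.36 in old control and 13.14 to 13.18 in young control mice. After quantile normalization the 4 ranges, 13.19 to 13.25, 13.19 to 13.30, 13.18 to 13.28 and 13.18 to 13.23 in the same order, overlapped. The arrays were scaled to 1 common trimmed mean, and in bulk tissue fewer cells of a type and less RNA per cell cannot be told apart.

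**Figure D3:**
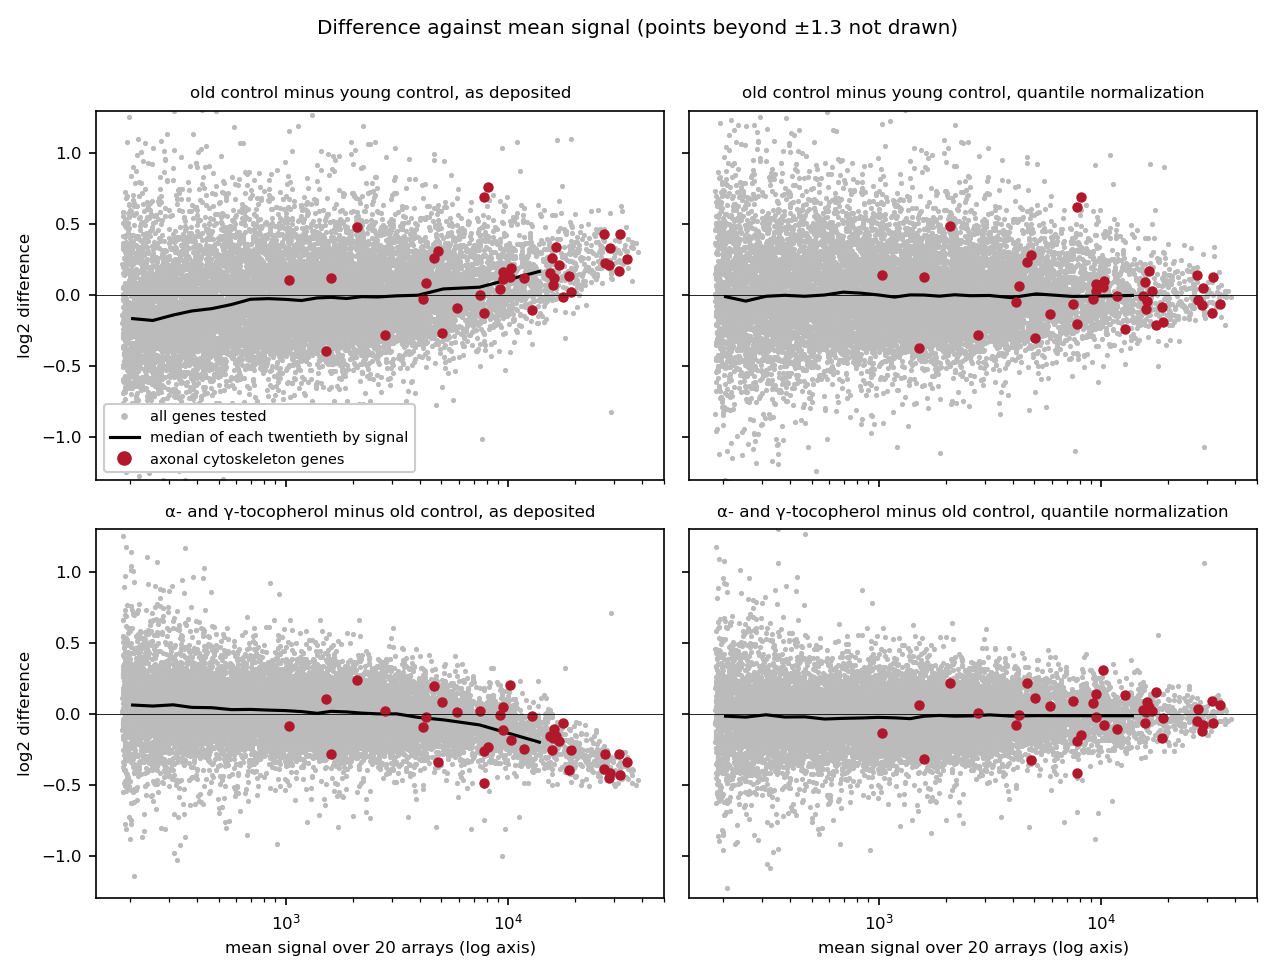
Log2 difference (y axis) against mean signal over 20 arrays (log x axis) for all genes tested (grey) and the 38 axonal cytoskeleton genes (red), with the running median as a line. As deposited (left) the line leaves 0 at high signal, upward for old against young control and downward for the mixture against old control, and after quantile normalization (right) it stays near 0.

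α-Tocopherol alone gave no called difference from old control mice. Adjusted p ran from 0.857 to 0.998 over the 38 genes, and 2 of them, Clasp2 and Stmn1, had an unadjusted p under 0.05, as had 753 of the 13351 genes. Clasp2 averaged 8729.8 ± 897.2 in α-tocopherol mice, against 9919.6 ± 645.0 in old control mice (log2 difference -0.19, 95% interval -0.34 to -0.03). Stmn1 averaged 30105 ± 2722 in α-tocopherol mice, against 33431 ± 2692 in old control mice (log2 difference -0.15, interval -0.29 to -0.01). Map1a, the third by p, had a difference of 0.21 (interval 0.00 to 0.42). Its signals were 9291, 12172, 15036, 10402 and 10055 in α-tocopherol mice, against 10935, 10661, 9207.5, 9491 and 8532 in old control mice. All 38 intervals lay within a 1.5-fold change, which does not show that the diet left these genes alike. The intervals ran from -0.40 for Tubb2b and Map6 to 0.50 for Map1b.

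The mixture and α-tocopherol diets differ by the replacement of 500 mg/kg of α-tocopherol with γ-tocopherol, so the α-tocopherol doses differ while their sum is matched. None of the 38 genes, and 0.0% of all genes, was called between them, and 18 of the 38 had an unadjusted p under 0.05, as had 1163 of all genes. Tuba1a had the smallest p, with a log2 difference of -0.39 ± 0.09 SE (95% interval -0.57 to -0.21, adjusted p = 0.113). It was followed by Basp1 (-0.35, interval -0.51 to -0.18, adjusted p = 0.131) and Clasp2 (-0.30, interval -0.46 to -0.15, adjusted p = 0.149). Basp1 had 35521, 30752, 28938, 30209 and 26094 in α-tocopherol mice, all above the mixture mice. After quantile normalization the Tuba1a difference was -0.07, that of Basp1 -0.09 and that of Clasp2 -0.25. The count rests on α-tocopherol mouse 5, which was lowest of its group for Tuba1a, Tubb2a, Tuba4a, Stmn1, Basp1, Kif5a and Clasp2. Without it 7 of the 38 genes were lower with the mixture (Tuba1a, Clasp2, Tuba4a, Basp1, Tubb2a, Kif5a and Stmn1, adjusted p = 0.014 to 0.047), against 0.682% of all genes. Without it and after quantile normalization 0 were.

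The 13 genes that rose with age and the 11 that fell with the mixture share the old control mice, so their differences are given side by side and not as separate evidence. Tubb3, Tuba1a, Tuba4a, Stmn1, Kif5a, Kif5c, Clasp2 and Thy1 were in both lists. The same overlap was not counted over all genes tested. Bright genes as a whole also had a positive median difference with age and a negative one with the mixture. Map1b had 0.48 with age and 0.24 with the mixture, Ank3 0.76 and -0.23, and Dpysl2 0.34 and -0.16. Tubb2a, Basp1 and Sptbn1 fell with the mixture and were not called with age. Leaving out old control mice 3 and 5, chosen after seeing the data for their high maximum signals, left 6 genes higher and 2 lower with age and 0 called with the mixture.

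Other probe sets of the same genes, which can measure other transcript ends or isoforms, did not always move with the brightest one. Of 90 tested probe sets of the 38 genes 21 were higher and 7 lower with age, against 9.33% and 9.54% of all probe sets tested, and 12 were higher and 8 lower after quantile normalization (8.96% and 7.68%). As deposited, Ank3 and Kif5c were called in both directions. For Ank3 the second called probe set had 1146, 1427, 1118, 1454 and 1340.0 in old control mice, against 1773, 1966, 1921, 1513 and 1922 in young control mice (log2 difference -0.49 ± 0.11 SE, adjusted p = 0.00422). For Kif5c it had 2812, 2826, 2471, 3116 and 3079.7 in old control mice, against 4233, 4516, 4153, 4130.6 and 4972 in young control mice (-0.62 ± 0.13 SE, adjusted p = 0.00212). Both remained lower after quantile normalization, at -0.46 and -0.62. For Map2 a dim probe set had 176.9, 198.1, 269.1, 187.9 and 275.6 in old control mice, all below the 280.4, 360.5, 312.0, 335.9 and 312.9 of young control mice (-0.52 ± 0.15 SE, adjusted p = 0.0162, and -0.38, adjusted p = 0.0722, after quantile normalization). The brightest probe set of Map2 had 0.16 and was not called when adjusted over all probe sets (adjusted p = 0.0556). Averaged over all its probe sets Ank3 had a difference of 0.00 and Kif5c of 0.10, and Dpysl3 had 0.01.

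All 3 tested probe sets of Clasp2 were higher with age (log2 differences 0.69, 0.54 and 0.57), also after quantile normalization. With the mixture only the brightest was lower, and the others had 0.16 and 0.17. Tubb2a had the largest difference of any probe set of these genes. Its second, dimmer probe set had 511, 612, 643, 598 and 536 in mixture mice and 960.0, 1080.0, 960.0, 2101 and 654 in α-tocopherol mice. It had 1068, 989, 1186, 1394 and 2553 in old control mice and 504, 401, 423, 563 and 553 in young control mice. Every old control mouse exceeded every mixture and young control mouse (log2 difference 1.45 ± 0.24 SE with age, adjusted p = 0.000432, and -1.20 ± 0.24 SE with the mixture, adjusted p = 0.0128). After quantile normalization these were 1.51 (adjusted p = 0.000366) and -1.25 (adjusted p = 0.0325). The brightest probe set of Tubb2a had 0.14 with age.

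As deposited, other genes showed differences with age on a dimmer probe set alone. The brightest one of Sptbn1 was called lower with age after quantile normalization, as given above. Its dimmer one had 935, 1082, 810.4, 1221 and 1032 in old control mice, against 599.8, 612, 603, 492 and 414 in young control mice (log2 difference 0.88 ± 0.13 SE, adjusted p = 0.000272). Map4 had 0.48 ± 0.09 SE (adjusted p = 0.00172) and Kif1a 0.82 ± 0.17 SE (adjusted p = 0.00275) on such a probe set. Stmn2 had -0.28 ± 0.07 SE (adjusted p = 0.00698) and Dclk1 -0.41 ± 0.10 SE (adjusted p = 0.00784). Nefl had 0.18 ± 0.06 SE (adjusted p = 0.0419), but 0.04 after quantile normalization. With the mixture 12 of the 90 probe sets were lower and 1 higher, against 2.29% and 1.3% of all, and after quantile normalization 3 and 0 (0.289% and 0.204%). Those 3 were of Clasp2, Tubb2a and Dcx. The Dcx probe set, dimmer than its brightest one, had 966.7, 1086.0, 813.1, 766.9 and 897.5 in mixture mice, all below the 1166.2, 1119.3, 1132.1, 1292.6 and 1134.2 of old control mice (log2 difference -0.37 ± 0.09 SE, adjusted p = 0.0276, and -0.42, adjusted p = 0.0453, after quantile normalization). The higher one as deposited, of Dclk1, had 0.39 ± 0.10 SE (adjusted p = 0.034).

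**Figure D4:**
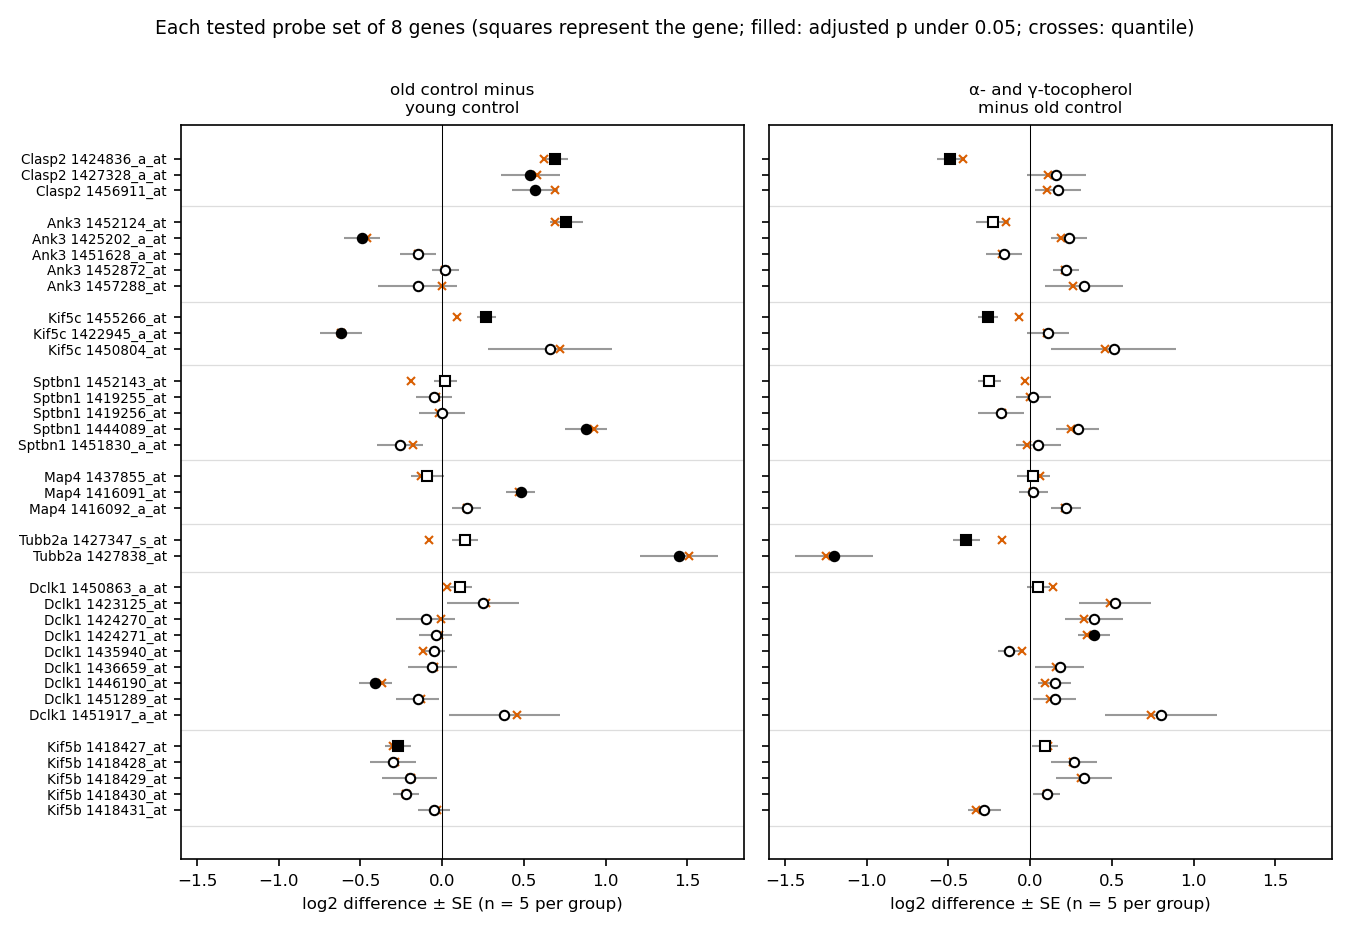
Log2 difference ± SE (x axis, 5 mice per group) for each tested probe set of 8 genes (rows), for old against young control (left) and the mixture against old control (right). Squares mark the brightest probe set, filled symbols an adjusted p under 0.05 and crosses the value after quantile normalization. Those of Clasp2 all lie right of 0 with age, while those of Ank3 and Kif5c lie on both sides.

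Other genes of the pathway were taken from 9 lists by name. Of 15 tested genes of the spectrin, ankyrin and membrane skeleton list 9 rose and none fell with age, against 12.4% and 10.4% of all genes, with a median of 0.28. After quantile normalization 5 rose and none fell, with a median of 0.08, where 21.1% of all genes were called in either direction. They included Sptan1, the α-spectrin partner of Sptbn1 (log2 difference 0.50 ± 0.08 SE, adjusted p = 0.000279), Epb41l1, a neuronal membrane skeleton adaptor (0.42 ± 0.08 SE, adjusted p = 0.00121), and Tmod2, a neuronal actin-capping tropomodulin (0.51 ± 0.11 SE, adjusted p = 0.00305). These 3 were also called after quantile normalization. Of 14 initial segment and node genes 3 rose and none fell, led by the adhesion molecule Nrcam, a binding partner of ankyrins (0.39 ± 0.08 SE, adjusted p = 0.00156), with 2 after quantile normalization.

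In the 6 lists that follow 10.5% to 28.6% of the genes were higher and 3.57% to 14.3% lower with age, beside 12.4% and 10.4% of all genes. Of 7 other tubulins Tuba8 and Tubg1 rose (log2 differences 0.42 and 0.32) and Tubg2 fell (-0.28). Of 19 genes of tubulin folding and modification 2 rose and 2 fell, among them Ttll1, which adds glutamates to tubulin (0.98 ± 0.20 SE, adjusted p = 0.0016), and Hdac6, a tubulin deacetylase (-0.22). Of 28 other microtubule-binding and severing genes 5 rose and 1 fell, including Clasp1, the paralog of Clasp2 (0.38 ± 0.10 SE, adjusted p = 0.00724), Camsap3, which binds minus ends (0.32), and Katna1, the katanin severing subunit (-0.32). Of 23 other kinesin genes 4 rose and 2 fell, led by the kinesin adaptor Mapk8ip1 (0.94 ± 0.13 SE, adjusted p = 5.66e-05), with Kifc2 at 0.42 and Kif3c at -0.35. Of 21 dynein and dynactin genes 5 rose and 2 fell, among them the dynactin subunits Dctn1 (0.37) and Dctn4 (0.44).

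Of 26 growth cone and collapsin signalling genes 4 rose and 2 fell, with the kinesin adaptor Fez1 at -0.34 (adjusted p = 0.000335), Marcks at -0.29 and the collapsin response relative Dpysl4 at 0.36. After quantile normalization 2 other tubulins rose and 2 fell, as did 2 and 2 folding, 3 and 1 microtubule-binding, 3 and 2 kinesin, 4 and 2 dynein and 3 and 2 growth cone genes. Among 11 other intermediate filament genes, Gfap and Vim of astrocytes rose (log2 differences 1.82 and 1.19). All of these named genes except Hdac6, Tubg2, Katna1, Kif3c and Marcks were called in the same direction under all 4 scalings, and those 5 were not called with the array medians set equal. Katna1 was also not called after cyclic loess normalization. Among the called genes of smallest p with age not yet named, Map1lc3a had 0.32 as deposited and 0.05 after quantile normalization. It was not called after that normalization, nor were Ttll11, Tcp1, Dmtn and Scn2a. Scn1a was not called after cyclic loess normalization. Kif1c, Dynll2, Actr1a and Cfl1 were called higher under all 4 scalings.

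With the mixture, as deposited, 3 of 15 membrane skeleton, 1 of 14 initial segment, 1 of 19 folding, 3 of 28 microtubule-binding, 2 of 23 kinesin, 2 of 21 dynein and 4 of 26 growth cone genes fell, where 3.16% of all genes fell and 1.36% rose. After quantile normalization 1 membrane skeleton gene fell and none of the other lists had a lower call. In the kinesin and growth cone lists 1 gene each rose, and in the tubulin and intermediate filament lists none was called. Kinesin light chain Klc1 (-0.30), the dynein light chains Dynll1 (-0.33) and Dynll2 (-0.29), the actins Actb (-0.42) and Actg1 (-0.35), and cofilin, Cfl1 (-0.42), fell. After quantile normalization these 6 had differences of -0.10 to 0.02 and were not called. Called also under all 4 scalings were the actin-capping gene Tmod1, lower (-0.72 ± 0.15 SE, adjusted p = 0.0125), the kinesin adaptor Trak2, higher (0.40 ± 0.08 SE, adjusted p = 0.00917), and the semaphorin co-receptor Nrp1, higher (0.57 ± 0.12 SE, adjusted p = 0.0125).

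Marker genes of several cell types moved with the groups. Of 13 pan-neuronal markers 8 rose and none fell with age as deposited, against 12.4% and 10.4% of all genes, and 6 fell with the mixture, against 3.16%. After quantile normalization, where 21.1% of all genes were called with age, 2 rose and 2 fell with age (median log2 difference 0.08). None of the 13 was called with the mixture (median -0.04). Their summed signal was 189622 to 219367 in mixture, 214381 to 262247 in α-tocopherol, 230863 to 272896 in old control and 199760.0 to 210935 in young control mice. Of 9 layer 5 projection neuron markers none changed with age and 1 fell with the mixture. With age 10 of 12 astrocyte, 7 of 11 oligodendrocyte and 9 of 11 microglia markers rose and 1 microglia marker fell, where 12.4% of all genes rose and 10.4% fell. After quantile normalization 7 astrocyte, 6 oligodendrocyte and 9 microglia markers rose, and 1 oligodendrocyte and 1 microglia marker fell. Summed oligodendrocyte signal was 97546 to 120322 in mixture, 114041 to 132919 in old control and 85326 to 96393 in young control mice. Choroid plexus markers summed to 10839 to 52590.0 in old control mice and to 28912 to 42766 in young control mice. Of 11 markers of oligodendrocyte precursors and immature neurons 3 rose and 2 fell with age, and of 8 endothelial and mural markers 1 rose and 1 fell. Of 8 choroid plexus markers 1 fell, and of 10 meningeal and 7 striatal markers none was called. With the mixture 1 oligodendrocyte marker fell, and 1 marker each of microglia, choroid plexus and precursors and 2 of meninges rose. Of all genes 3.16% fell and 1.36% rose in that comparison. After quantile normalization no marker of any list was called with the mixture, where 0.382% of all genes fell and 0.225% rose. None of the 5 blood markers passed the filter on dim probe sets. The part of cell composition in the axonal differences was not tested.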

How the data were processed

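Poly(A) RNA of neocortex was labelled from an oligo-dT primer and hybridised to Affymetrix arrays, 1 array per mouse, per the labels' protocols. The deposited values are linear signal intensity per probe set, with no counts or depth. The submitters' processing notes name GCOS, and the intensity columns deposited by the authors all have a 2% trimmed mean of 1000; steps for background and probe set summary: not given in the sources used here. Such scaling hides any shift of all mRNA in 1 direction.

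Of 45101 probe sets, 64 controls were left out; 34945 of the others had 1 gene symbol in the platform annotation, 932 several and 9160 none. Symbols were updated by gene identifier to RefSeq GRCm38.p6. The brightest 60% of probe sets by mean log2 signal (signal limit 184.4) were tested, 27022 in all, and the brightest probe set with 1 symbol stood for each of 13351 genes; every probe set was also tested on its own. Signals were used as log2(signal + 16), which understates differences of dim genes. Means ± SD are of signals, and folds come from the log2 differences. Differences were tested two-sided with limma 3.58.1 in R 4.3.3 (lmFit, contrasts, eBayes with trend) over all 20 arrays, with Benjamini-Hochberg adjustment per comparison and a threshold of 0.05, and checked on simulated data. Array measures were compared by exact permutation. Groups come from the labels, which give each mouse its own chip, so p-values measure the spread between mice.

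Alternatives were quantile, cyclic loess and equal-median scaling, pseudocounts of 1 and 64, no filter, mean over probe sets, only the compared groups, the replicate number as a block, the β-actin ratio, and each mouse left out. The genes, the 9 pathway lists and the 11 marker lists were chosen with earlier results of these data known. All measured members are named. Signals per mouse are given for the 3 smallest p of each comparison and for members the results turn on, and up to 4 called genes per pathway list are named.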

Additional observations from a re-analysis of the deposited data

Results flagged for a closer look

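Among 152 groups of 5 mice, 38 genes in 4 groups, 6 had 1 mouse separated from the other 4 by more than 0.710 of the group's range (Dixon's 95% value), where chance gives about 1 in 20, or 7.6. In mixture mice, Map6 had 1216.8 in mouse 1, against 969 to 1019 in the others. Stmn4 had 8221.1 in mixture mouse 3, against 10975 to 12206 in the others. Thy1 had 20994.2 in mixture mouse 5, against 25057 to 26460.2 in the others, and that mouse was also the lowest of its group for Tubb3, Tuba1a and Clasp2. In old control mice, Clasp2 had 11057.9 in mouse 4, against 9515 to 9799 in the others. Thy1 had 33450.7 in old control mouse 2, against 28954 to 29573 in the others. Uchl1 had 14074.7 in old control mouse 1, against 17053 to 17961 in the others. The calls of Clasp2 with age and with the mixture held with any 1 mouse left out.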

How the results depend on the processing

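The counts of axonal genes called depend on the scaling of the arrays, the β-actin ratio, the probe sets used and the mice kept. The cause of each change was not tested unless given. With age 15 genes were called as deposited, and 9 after quantile normalization (5 higher, 4 lower), 9 with the mean over all probe sets of a gene (8 higher, 1 lower), 5 with the β-actin ratio added as a covariate, 4 with both quantile normalization and that covariate, and 8 without old control mice 3 and 5, where fewer mice were compared. Other alternatives gave 10 to 22. With the mixture against old control 11 genes were called as deposited, 1 after quantile and 1 after cyclic loess normalization, and 6 with the mean over probe sets (1 higher, 5 lower). With the β-actin covariate 0 were called in limma (10 at an unadjusted p under 0.05), with that and quantile normalization 0 (4 unadjusted), and without old control mice 3 and 5 0 (16 unadjusted). Other alternatives gave 8 to 13. Leaving out 1 mouse at a time gave 10 to 16 with age, 6 to 11 with the mixture (6 without mixture mouse 5), 0 to 0 with α-tocopherol and 0 to 7 for the mixture against α-tocopherol (7 without α-tocopherol mouse 5). Every other alternative gave 0 for the last 2 comparisons.

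Some genes changed sign. With age, after quantile normalization alone and with the β-actin covariate added, Map2 had -0.01 and -0.01, Kif5a -0.06 and -0.06 and Thy1 -0.03 and -0.01. With the mean over probe sets Dpysl3 had 0.01 and Ank3 -0.00, where probe sets of opposite sign were averaged. With the mixture Kif5a had 0.06 and 0.05 and Thy1 0.04 and 0.01 in those fits, Sptbn1 had 0.04 with quantile normalization and the covariate, and Kif5c 0.12 with the mean over probe sets. No single-mouse omission turned a sign.

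With the replicate number as a block 14 genes were called with age and 13 with the mixture. Nothing in the labels says that equal numbers share a litter or day, so the numbers were not taken as pairs. Deviations of same-numbered mice had a median correlation of 0.02 (-0.12 to 0.2), against -0.01 for other numbers. Of 20 mice 9 correlated best with a mouse of their own number. The count to be had by chance was not computed, and whether equal numbers share something was not tested. The alternatives without old control mice 3 and 5, and those joining quantile normalization to another choice, were added after seeing the data. With 5 arrays per group, differences of about the sizes seen here are near what can be called, and no array gives a count or depth.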
